A study of Mus musculus with 868 samples.

Results

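The muscle fibre type contractile genes described here are 10 mouse genes: the myosin heavy chains Myh1, Myh2, Myh4, Myh6 and Myh7, the inhibitory troponins Tnni1 and Tnni2, the tropomyosin-binding troponins Tnnt1 and Tnnt3, and the cardiac actin Actc1. They were taken by symbol from 24 tissue count tables of 24421 gene symbols each, and all 10 were found. The 868 libraries came from C57BL/6N mice that were untreated, received a control agent or received a drug. Each of the 24 tissues has 18 groups of 2 libraries, 36 in all, except that brain holds 4 Asenapine libraries and jejunum 4 Sofosbuvir libraries (38 each). Nothing in the labels says whether the libraries of a group came from separate mice, so the p-values measure only the spread between these libraries, which may be technical.

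The 18 groups are 3 controls and 15 drugs. The controls are untreated mice, 5% sucrose, and a vehicle of 0.5% carboxymethylcellulose (CMC) with 0.25% Tween80, called CMC-Tween here. The drugs are acetaminophen (labelled APAP, 2 hours), Sofosbuvir, Alendronate, Risedronate, Asenapine, Lurasidone, Olanzapine, Aripiprazole, Cisplatin, Clozapine, Dox (2 mg/mL), EMPA (oral, 2 weeks), Lenalidomide, Repatha and Teriparatide. The labels do not spell out Dox or EMPA, and give no other dose, time, vehicle, age or sex. Drugs were compared only inside 3 sets of libraries that share a level shift across many genes. Set A holds untreated, sucrose, APAP and Sofosbuvir, set B holds Alendronate, Risedronate, Asenapine, Lurasidone and Olanzapine, and set C holds CMC-Tween and the other 8 drugs. These sets rest on the expression values and not on a label. Set B has no control group, so each of its drugs was compared with the mean of the other 4 drugs.

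Values are CPM, a gene's count divided by the total count of its library and scaled to the usual CPM unit. The total ranged from 451154 to 12811780 counts with a median of 877592, and the 48 untreated libraries held 2875950 to 12811780. The untreated tissues were checked against marker genes. Skeletal muscle had 54800 to 61856 CPM of Acta1 (skeletal actin) and 3958 to 4098 CPM of Ckm (muscle creatine kinase). The sum of 6 skeletal fibre markers, none of them among the 10 genes, was 168184 to 182639 CPM in muscle, and the sum of 6 cardiomyocyte markers was 32416 to 33325 CPM in heart against 4.59 to 5.78 in muscle. Fibre markers were also high in thyroid (16083 to 21116 CPM) and skin (13786 to 13998), and reached 1975 to 2486 in eye and 816 to 1128 in stomach. In these bulk samples, fewer muscle cells and less RNA per cell cannot be told apart. The labels do not say which muscle was taken.

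Muscle shortens when myosin heads on the thick filament pull on actin in the thin filament. The myosin heavy chain sets the speed of that stroke, and adult limb fibres are classed by it: Myh7 in slow fibres, and Myh2 (type IIa), Myh1 (IIx) and Myh4 (IIb) in fast fibres of increasing speed. The troponin complex sits on the thin filament and makes contraction depend on calcium. Its inhibitory subunit comes as Tnni1 in slow and Tnni2 in fast fibres, and its tropomyosin-binding subunit as Tnnt1 in slow and Tnnt3 in fast fibres. In the heart of the adult mouse Myh6 is the main ventricular myosin, Myh7 is the fetal and stress-associated myosin, and Actc1 is the sarcomeric actin.

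The fast myosin genes lie side by side on the forward strand of chromosome 11 of mm10: Myh2 at 67171027 to 67197517, Myh1 at 67200052 to 67224575 and Myh4 at 67238029 to 67260446. Gaps of 2534 and 13453 bases separate them. Their promoters are shown because the 3 genes hold 1 stretch in common. RefSeq windows of 250 bases before to 50 bases after the start (GRCm38.p6, the patch release of the same build) were found for 8 of the 10 genes, not for Tnni2 and Tnnt3. The capitals mark a run of 20 bases that is identical in all 3 and in no other of 32851 promoters searched. It begins 130 bases before the RefSeq start of Myh2, 165 before that of Myh1 and 163 before that of Myh4. The gene positions above are from GENCODE. The RefSeq start of Myh4 lies 217 bases before its GENCODE start and that of Myh1 50 bases after, while those of Myh2 coincide.
Myh2, chr11:67170777-67171076, plus strand: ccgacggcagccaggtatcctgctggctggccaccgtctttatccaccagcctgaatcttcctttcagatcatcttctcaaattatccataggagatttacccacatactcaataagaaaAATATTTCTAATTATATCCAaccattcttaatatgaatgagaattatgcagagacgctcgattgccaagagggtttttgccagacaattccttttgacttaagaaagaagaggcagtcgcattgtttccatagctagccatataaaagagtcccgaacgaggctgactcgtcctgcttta
Myh1, chr11:67199852-67200151, plus strand: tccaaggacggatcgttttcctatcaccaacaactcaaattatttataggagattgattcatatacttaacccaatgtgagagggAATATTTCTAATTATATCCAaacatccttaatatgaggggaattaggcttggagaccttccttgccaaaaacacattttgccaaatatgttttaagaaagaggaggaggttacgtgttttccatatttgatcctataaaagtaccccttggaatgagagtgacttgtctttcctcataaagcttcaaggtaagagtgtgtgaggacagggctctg
Myh4, chr11:67237562-67237861, plus strand: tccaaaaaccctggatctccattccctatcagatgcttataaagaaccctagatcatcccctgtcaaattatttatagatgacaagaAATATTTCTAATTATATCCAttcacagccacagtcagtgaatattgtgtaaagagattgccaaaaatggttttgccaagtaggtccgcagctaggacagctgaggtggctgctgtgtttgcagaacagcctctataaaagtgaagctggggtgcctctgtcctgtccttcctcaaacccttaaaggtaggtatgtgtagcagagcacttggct
In a global alignment with gaps, Myh1 and Myh4 were identical at 63.0% of the 300 positions, Myh2 and Myh1 at 61.3%, and Myh2 and Myh4 at 57.0%. The shared run is a description of these letters and not a binding site.

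The other promoter shown is that of the cardiac actin, whose level in heart passed the test under 2 treatments, as described further on. Capitals mark the CArG box CCAAATAAGG, the motif of serum response factor, and the letters TATAAA, in the sequence. The CArG box begins 47 bases before the RefSeq start used for the window and TATAAA begins 33 bases after it, so this TATAAA does not lie upstream of that start. The GENCODE start of Actc1 is 673 bases away from the RefSeq one.
Actc1, chr2:114052826-114053125, minus strand: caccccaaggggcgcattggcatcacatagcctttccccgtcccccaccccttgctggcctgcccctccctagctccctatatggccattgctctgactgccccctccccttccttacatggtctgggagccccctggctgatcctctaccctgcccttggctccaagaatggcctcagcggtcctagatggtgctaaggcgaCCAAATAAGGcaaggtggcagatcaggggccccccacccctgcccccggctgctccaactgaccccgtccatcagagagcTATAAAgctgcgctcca
On either strand, a CArG box was found in 1.63% of the 32851 promoters and TATAAA in 13.6%. Among the 8 windows, the CArG box occurred in Myh4 and Actc1. A MEF2 site, held by 3.19% of promoters, occurred in Myh1 and Myh4.

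The heart myosins are neighbours on the reverse strand of chromosome 14, Myh6 at 54941921 to 54966927 and Myh7 at 54970684 to 54994626, with 3756 bases between them. Their promoter windows were identical at 52.0% of positions. Tnni2 (142441808 to 142444410) and Tnnt3 (142498836 to 142516009) both lie on the forward strand of chromosome 7, 54425 bases apart. Tnnt1 lies elsewhere on chromosome 7, at 4504570 to 4516382 on the reverse strand. Tnni1 is on chromosome 1 at 135779434 to 135810989, and Actc1 on chromosome 2 at 114047282 to 114053548. Over the last 500 bases of their transcripts, 12.6% to 22.2% of the 50-base stretches of the 5 myosins also occur in another myosin gene, and none do for the other 5 genes. How the authors' counting treated reads that match several myosins is not given, so the levels of Myh1, Myh2, Myh4, Myh6 and Myh7 are uncertain to that extent. Whether counting used the strand is not given, and Myh1, Myh2, Myh6, Myh7, Tnnt3 and Actc1 overlap genes on the opposite strand, so reads of both would be counted for these genes if it did not.

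Across the 24 untreated tissues, the fast genes peaked in skeletal muscle. Myh4 was at 58420 and 65367 CPM in the muscle libraries. Next came thyroid with 4462 to 4711, skin with 4153 to 4327 and eye with 319 to 490, the last overlapping parotid gland (318 to 412). Muscle held 86.1% of the summed tissue means of Myh4. Tnni2 had the same order, with 44349 and 47469 CPM in muscle, 4269 to 4942 in thyroid, 3497 to 3798 in skin and 604 to 806 in eye. Tnnt3 followed with 14394 and 15581 CPM in muscle, 1183 to 1416 in thyroid, 742 to 902 in skin and 120 to 161 in eye. In these 3 genes no library of another tissue came near muscle.

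Myh1 and Myh2 were spread more widely. Myh1 was at 1357 and 1677 CPM in muscle, 336 to 647 in thyroid, 296 to 317 in skin, 72.4 to 97.7 in eye, 1.28 and 90.2 in skull, which overlapped eye and stomach, and 35.1 to 49.95 in stomach. Myh2 was at 354 and 824 CPM in muscle, 313 to 337 in thyroid, 129 to 161 in eye and 124 to 161 in skin, so eye and skin did not differ beyond their spread. Muscle held 60.3% of the summed tissue means of Myh1 and 47.6% of those of Myh2. The thyroid values were not stable across control groups: Myh4 there was 249 to 289 CPM in sucrose and 1195 to 9829 in CMC-Tween.

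The heart genes peaked in heart. Myh6 was at 14472 and 15610 CPM there, with 83.9 to 301 in aorta and 55.9 to 60.0 in lung, and heart held 97.9% of the summed tissue means. Myh7 was at 119 and 136 CPM in heart, 8.28 to 11.2 in lung and 4.74 to 6.25 in brain, the last overlapping eye (3.75 to 5.90). Actc1 was at 3898 and 4622 CPM in heart and 347 to 373 in skeletal muscle. Aorta followed with 53.1 to 82.5, which overlapped lung (54.6 to 63.2).

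The slow troponins did not peak in skeletal muscle of untreated mice. Tnni1 was highest in colon, at 32.7 and 34.5 CPM, then eye (8.26 to 8.94) and skin (2.89 to 3.83), and was at 0.51 and 0.63 CPM in skeletal muscle. Over all 36 colon libraries it ran from 19.0 to 75.6 CPM with a median of 32.9. Tnnt1 was highest in eye, at 104 and 119 CPM, then heart (66.9 to 70.3), pituitary (25.4 to 31.5, overlapping bone marrow at 24.4 to 28.0) and skull (20.4 to 24.1). Its top tissue was eye with 26.6% of the summed tissue means, the lowest such share among the 10 genes. In the CMC-Tween group the top tissue of Tnnt1 was skeletal muscle instead. For the other 9 genes, untreated, sucrose and CMC-Tween libraries gave the same top tissue.

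**Figure D1:**
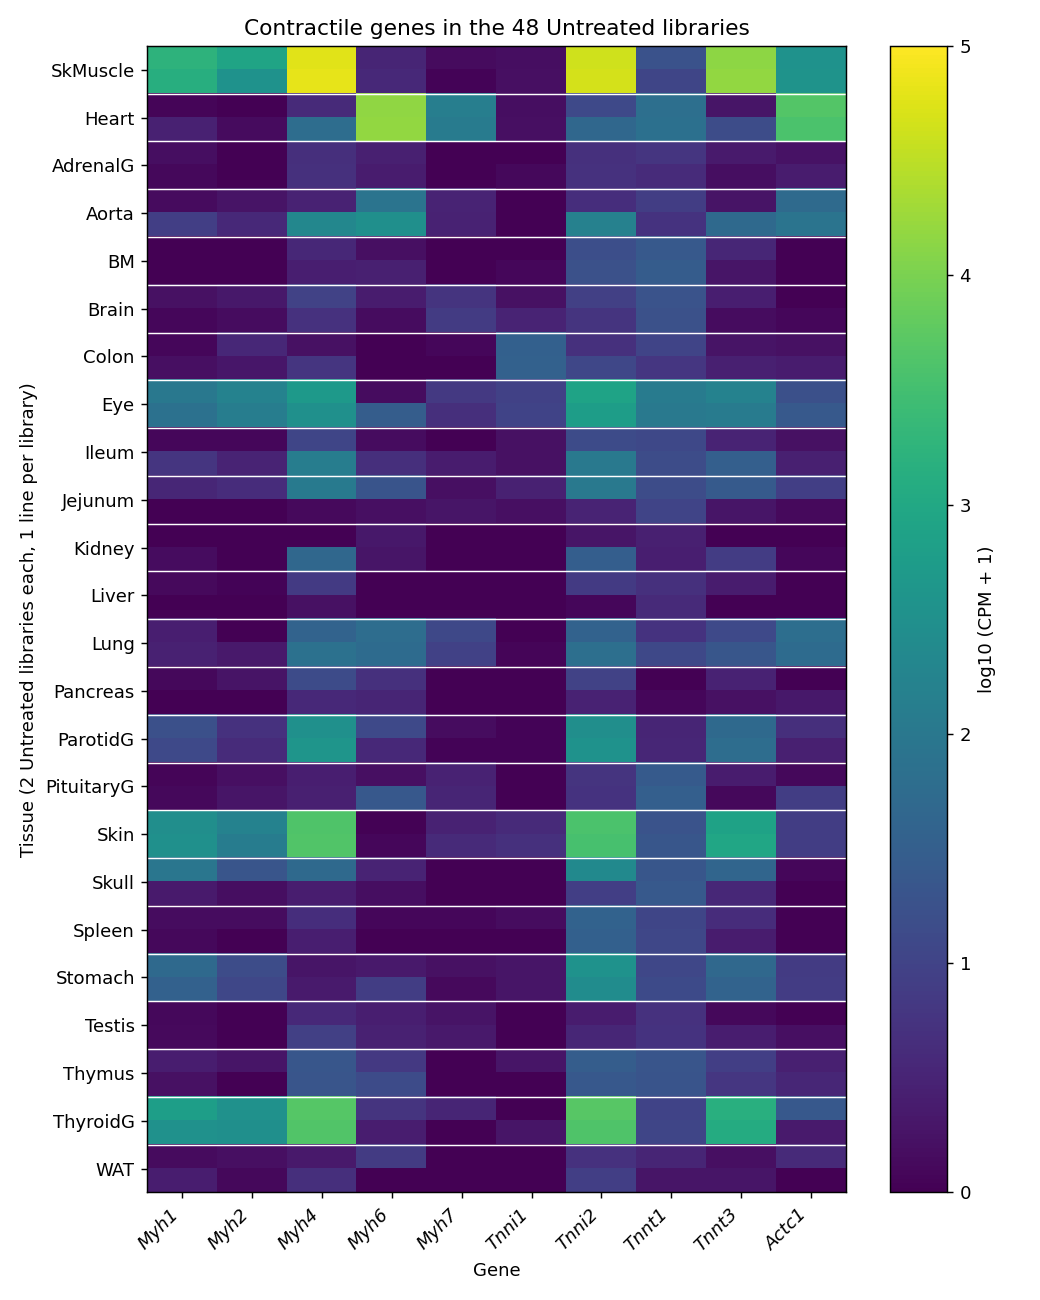
Levels of the 10 genes (columns) in the 48 untreated libraries (lines, 2 per tissue), coloured by log10 (CPM + 1). Myh4, Tnni2 and Tnnt3 are highest in the skeletal muscle lines and next in thyroid and skin, Myh6, Myh7 and Actc1 are highest in heart, Tnni1 in colon and Tnnt1 in eye.

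Untreated skeletal muscle and heart were compared directly in a fit of all 48 untreated libraries (edgeR quasi-likelihood test, Benjamini-Hochberg adjusted p under 0.05 over all genes). Of 18298 genes tested, 34.7% passed, and of the 10 members 9 passed. Myh4 was higher in muscle by 11.55 ± 1.99 on the log2 scale (SE, adjusted p = 1.14e-05), Tnni2 by 11.24 ± 1.68 (adjusted p = 1.08e-06) and Tnnt3 by 11.67 ± 1.36 (adjusted p = 7.27e-09). As a ratio of counts per total, Myh4 was 2040-fold higher in muscle (95% exact interval 1825 to 2288, for counting error only), with 310 counts left in heart. Myh1 rested on 10 heart counts and Myh2 on 2, which gave ratios of 1554 (845 to 3240) and 3031 (839 to 25028).

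Myh6, Myh7, Actc1 and Tnnt1 were lower in muscle than in heart. The log2 differences were -11.92 ± 1.21 for Myh6 (adjusted p = 6.10e-10), -8.27 ± 0.50 for Myh7 (adjusted p = 6.81e-14), -2.95 ± 0.44 for Actc1 (adjusted p = 1.67e-06) and -1.73 ± 0.23 for Tnnt1 (adjusted p = 1.34e-07). Myh7, the slow fibre myosin, had 5 counts in the 2 untreated muscle libraries against 1304 in heart. Tnnt1, the slow skeletal troponin T, had 265 counts in muscle and 701 in heart. Tnni1 differed by 0.54 ± 0.85 (adjusted p = 0.718) on 11 counts in muscle and 6 in heart, a count ratio of 0.964 with an interval of 0.327 to 3.17. No difference in Tnni1 was detectable at this depth.

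Related genes, grouped in 8 lists by textbook role, were also compared. The fast fibre and heart contractile lists are defined by these tissues, so their direction was largely fixed in advance. They also overlap the marker sums. The fast fibre list holds the fibre markers Mylpf, Myl1 and Tnnc2, and the heart contractile list holds all the cardiomyocyte markers. All 11 genes of the fast fibre list (such as Mylpf, Myl1, Tnnc2 and Pvalb) were higher in muscle, with a median log2 difference of 11.46, against a median of 0 over all genes. Of 10 slow fibre genes, 8 were higher in heart (median -5.56), where Myl2, Myl3 and Tnnc1 are also the cardiac isoforms. Mybpc1 was higher in muscle by 11.00, and Tpm3 (-0.23 ± 0.14, adjusted p = 0.208) did not pass. All 10 tested heart contractile genes were higher in heart (median -10.92). All 7 glycolytic genes were higher in muscle (median 2.55), and 5 of 6 tested oxidative genes were higher in heart (median -1.26). Of 11 regulators of muscle fate and fibre type, 10 were higher in muscle (median 5.07) and Prox1 was higher in heart (-4.10 ± 0.47). Of the developmental and special myosins, 3 of 5 tested were higher in muscle and 1 in heart, and of the denervation and atrophy genes 5 of 9 tested were higher in muscle.

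The slow and fast isoforms were also compared as shares of each other. The library kit counts about 1 tag per transcript at its 3′ end, so levels of different genes were compared without division by length. Of the counts of Tnni1 and Tnni2 together, Tnni1 made up 0.00114% to 0.00132% in untreated skeletal muscle. Of the counts of Tnnt1 and Tnnt3 together, Tnnt1 made up 0.0635% to 0.120% there. Of the 4 skeletal myosins, Myh4 made up 95.9% to 97.4%, Myh1 2.02% to 2.75%, Myh2 0.528% to 1.35% and Myh7 0.000155% to 0.000665%. Slow isoforms were thus far below the fast ones: the Wilson 95% intervals of the Tnni1 share, which cover counting error only, ran from 0.000488% to 0.00288% over both libraries.

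Other tissues with fibre markers had other mixtures, which moved between the control groups. In untreated eye, Tnnt1 made up 42.5% to 46.5% of the troponin T counts, and Myh4 60.9% to 64.9%, Myh2 21.3% to 24.6% and Myh1 12.9% to 13.8% of the myosins. The Tnnt1 share in eye was 30.7% to 40.0% in sucrose and 12.7% to 18.4% in CMC-Tween. In untreated stomach Myh1 led with 74.2% to 76.8%, then Myh2 with 20.8% to 22.5%, and Myh4 made up 1.40% to 2.65%. The other controls did not share this order. Myh4 made up 93.9% of 575 myosin counts and 88.9% of 9 in sucrose stomach, and 87.9% of 58 in CMC-Tween replicate 4, while replicate 3 held only 3 counts. In untreated thyroid Myh4 made up 82.7% to 87.3% and in untreated skin 90.1% to 90.7%, with ranges below that of untreated skeletal muscle. These shares were 91.5% to 93.4% in sucrose and 56.6% to 84.3% in CMC-Tween thyroid, and 71.5% to 92.0% and 87.3% to 89.2% in skin. In untreated colon, Tnni1 was 76.2% to 89.4% of the troponin I counts, on 170 to 227 counts per library. It was 33.3% and 68.4% of 57 counts each in sucrose colon, and 100% of 45 and 98.1% of 52 in CMC-Tween.

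Over all 36 skeletal muscle libraries the slow isoforms stayed minor but varied widely. The Myh7 share ran from 0.000155% to 0.0675% in set A, from 0 to 0.0979% in set B and from 0 to 0.0795% in set C. A Myh7 share of 0, as in Repatha replicate 3, allows up to 0.00539% by its Wilson interval. The Tnni1 share ran from 0 to 0.0315%, 0 to 0.153% and 0 to 0.233%, and the Tnnt1 share from 0.0635% to 1.29%, 0.0311% to 0.441% and 0.0160% to 0.428%. Myh4 stayed between 91.6% and 97.9%. The fast partners differed between the sets as well: Tnni2 was at 27484 to 47469 CPM in set A, 13115 to 19293 in set B and 8966 to 16002 in set C, while Tnnt3 was at 9954 to 15581, 16836 to 25968 and 19302 to 25549.

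The slow genes of muscle rose and fell together from library to library within each set. Tnni1 and Tnnt1, the slow troponins, correlated on the log2 (CPM + 1) scale with a Pearson r of 0.941 in set A (8 libraries, exact permutation p = 0.00288, adjusted 0.00864 over 15 correlations), 0.863 in set B (10 libraries, permutation p = 0.0019, adjusted 0.00713) and 0.891 in set C (18 libraries, permutation p = 1e-05, the smallest the permutations can give, adjusted 7.5e-05). Spearman's rho was 0.881, 0.648 and 0.907, with adjusted permutation p-values of 0.0272, 0.106 and 7.5e-05. Without the 2 libraries farthest from the median of Tnni1, r was 0.937, 0.892 and 0.883. With each treatment's mean removed it was 0.848, 0.847 and 0.923, so the relation was present between the replicates of a group.

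Myh7 and Tnni1 moved together too. Pearson's r was 0.846 in set A (exact permutation p = 0.0147, adjusted 0.0367), 0.898 in set B (permutation p = 0.00054, adjusted 0.0027) and 0.919 in set C (permutation p = 1e-05, adjusted 7.5e-05). Spearman's rho was 0.881, 0.754 and 0.932 with adjusted permutation p-values of 0.0272, 0.045 and 7.5e-05. Leaving out the 2 libraries farthest from the median of Myh7 gave 0.796, 0.787 and 0.882, and removing treatment means gave 0.818, 0.880 and 0.902. The relation of Myh7 with Myh4, the fast IIb myosin, did not pass in any set (r of -0.518, -0.365 and -0.165, adjusted permutation p = 0.25, 0.365 and 0.561), and neither did that of Myh2 with Myh4 (r of -0.691, -0.627 and 0.068, adjusted permutation p = 0.0982, 0.0982 and 0.788) or, in heart, that of Myh6 with Myh7. Removing treatment means gave -0.116, -0.692 and -0.882 for Myh7 with Myh4, and -0.753, -0.751 and -0.847 for Myh2 with Myh4. Within treatments, the muscle library with more Myh2 thus tended to have less Myh4 in each set, a description with no test.

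The same was seen pair by pair. In each of 18 treatment groups the library with the higher Myh7 was set against its partner. That library also had the higher Tnnt1 in 16 pairs, with a median ratio of 2.51, the higher Tnni1 in 13 and the higher Myh2 in 17, but the higher Myh4 in 4 and the higher Tnnt3 in 6. The fast members Myh1 and Tnni2 did not follow Myh4, and were higher in 13 and 12 pairs. The fast fibre list was mixed, with the higher value in 4 to 11 pairs depending on the gene. Of its most abundant genes, Tnnc2 was higher in 10 pairs, Mylpf in 9, Myl1 in 8 and Pvalb in 7. Over the slow fibre list, the higher value was found in 7 pairs (against 5 lower) to 17 pairs, depending on the gene. Of its most abundant genes, Mybpc1 was higher in 13 pairs (median ratio 1.10) and Lmod2 in 12 (1.17). Myl3 (4.96) and Tpm3 (1.34) were each higher in 14. These counts are a description, since a library was put first by its own Myh7. They show that libraries of 1 group could differ many-fold in slow genes: Asenapine had 0 and 20.2 CPM of Myh7, Alendronate 1.25 and 44.1, Cisplatin 27.6 and 0.60, and Repatha 21.2 and 0.

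**Figure D2:**
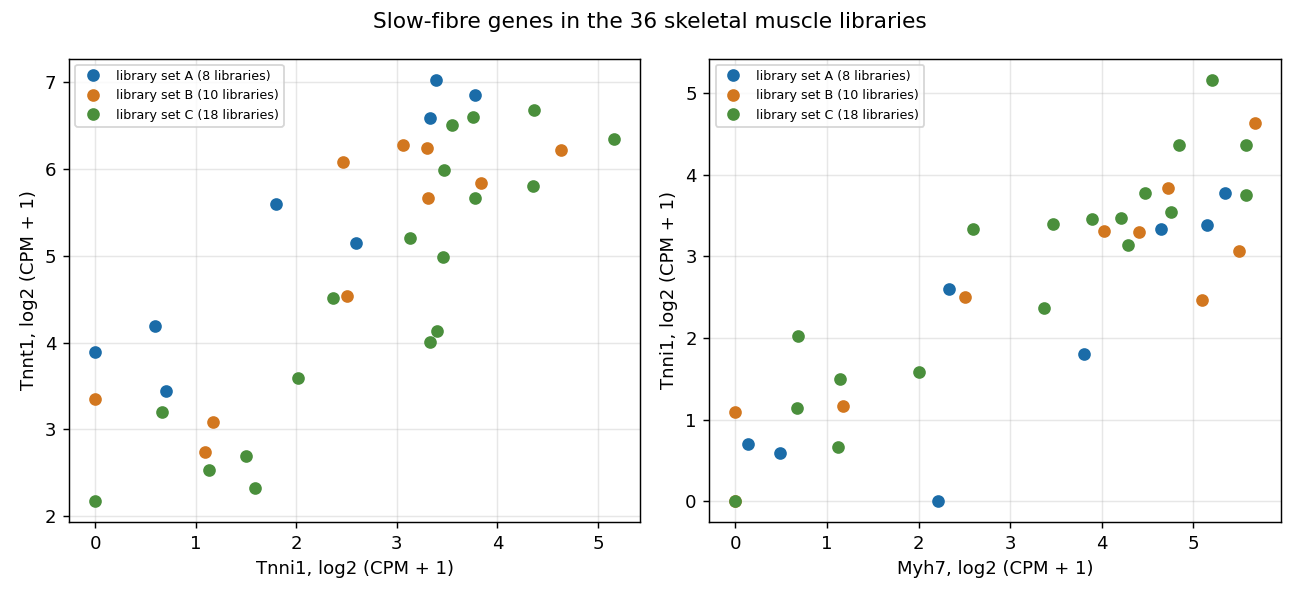
Skeletal muscle libraries (1 point each), with Tnni1 on the x axis and Tnnt1 on the y axis, and with Myh7 on the x axis and Tnni1 on the y axis, all as log2 (CPM + 1), coloured by library set A (8), B (10) and C (18). Points rise together in each set, with r between 0.846 and 0.941.

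In skeletal muscle, 16 treatment contrasts were tested within the sets, and all 10 members passed the filter on low counts. Of 160 member tests, 22 passed (9 higher, 13 lower), and 19 of the 22 had ranges that did not overlap. Over all genes and contrasts 6959 of 137264 tests passed, or 5.07%. Calls fell in 8 contrasts, of which Cisplatin (36.2% of genes called) and APAP (28.1%) moved much of the transcriptome. Only 3 of the 22 calls held when each library of the contrast was left out in turn, namely Tnni2 in APAP, Tnnt3 in Asenapine and Myh4 in Cisplatin. In these fits a group left with 1 library is assumed to vary like the others.

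After Cisplatin, a DNA-crosslinking agent, the main myosin was lower. Myh4 was at 41337 and 46771 CPM in the Cisplatin libraries against 59086 and 60372 in CMC-Tween. The ranges were apart and the log2 difference was -0.53 ± 0.10 (adjusted p = 5.86e-05). Myh2 was at 280 and 745 CPM against 1149 and 1288, lower (log2 difference -1.35 ± 0.34, adjusted p = 0.0021), and Tnnt3 at 20896 and 22199 against 24852 and 25549, lower (log2 difference -0.31 ± 0.09, adjusted p = 0.0091). Myh2 lost its call without Cisplatin replicate 3 (-0.82, adjusted p = 0.112), and Tnnt3 without CMC-Tween replicate 3 (adjusted p = 0.0816) or Cisplatin replicate 1 (adjusted p = 0.140). The highest Myh2 and Tnnt3 of set C were in CMC-Tween, and the set medians were 706 and 22273 CPM. The Cisplatin libraries lay inside the set C ranges of both genes (234 to 1288 and 19302 to 25549 CPM). Myh7 was 27.6 and 0.60 CPM after Cisplatin and did not pass.

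Other fast fibre genes fell with it. Of 11 fast fibre genes 7 fell and 2 rose (median -0.54), among them Tnnc2, the fast troponin C, at 14639 to 17003 CPM against 23500 to 25411, and Pvalb, the calcium buffer parvalbumin, at 5557 to 6262 against 10003 to 10617. Of 7 glycolytic genes 5 fell (median -1.23), such as Eno3 (1693 to 1965 against 3792 to 4273 CPM) and Pgam2 (266 to 374 against 1182 to 1330). Of 9 tested slow fibre genes 3 fell (median -1.22), and of 10 tested regulators 4 fell. With 36.2% of all genes called in this contrast, in either direction, these 2 counts were near the share over all genes. Among the regulators that fell was Mef2c, a transcription factor of muscle genes, at 149 to 286 against 1781 to 1843 CPM. Of 9 tested denervation and atrophy genes 5 rose (median 1.98) and 0 fell. Fbxo32 and Trim63, the muscle ubiquitin ligases, were at 8912 to 11080 against 647 to 882 CPM and at 8097 to 9309 against 422 to 560. Cdkn1a, a cell cycle inhibitor, was at 678 to 873 against 32.0 to 44.1. Beside these, the fibre marker sum was 97826 to 97971 CPM against 135034 to 135458, the brown adipocyte sum 285 to 368 against 519 to 521 and the fibroblast sum 739 to 788 against 1548 to 1606. Their part in the results was not tested.

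After APAP (2 hours), the fast troponins were lower and 2 slow genes were higher. Tnni2 was at 33967 and 27484 CPM against 39704 to 47469 in the 4 untreated and sucrose libraries, lower (log2 difference -0.67 ± 0.09, adjusted p = 3.0e-07). Tnnt3 was lower (log2 difference -0.34 ± 0.08, adjusted p = 0.0019), with overlapping ranges (10734 to 12511 against 10953 to 15581), and without APAP replicate 1 its adjusted p was 0.0694. Myh7 was at 24.1 and 4.04 CPM against 0.104 to 13.04, and Tnni1 at 9.05 and 5.05 against 0 to 2.48. They were higher by 3.03 ± 1.04 (adjusted p = 0.0273) and 2.84 ± 0.98 (adjusted p = 0.028), and the Myh7 ranges overlapped. Without APAP replicate 1 the Myh7 difference was 1.11 (adjusted p = 0.756), and its call was also lost without sucrose replicate 1 or untreated replicate 4 (adjusted p = 0.0634 and 0.0622). The Tnni1 call was lost without APAP replicate 1 or 2 or sucrose replicate 1 (adjusted p = 0.321, 0.063 and 0.0798).

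Of 11 fast fibre genes 8 fell and 1 rose after APAP (median -0.59 against -0.05 over all genes), with Tnnc2 at 30231 to 37961 CPM against 52828 to 54484 in sucrose and 63862 to 67392 in untreated muscle. Of 9 tested slow fibre genes 3 rose (median 1.25), such as Lmod2, a thin filament nucleator, at 157 to 205 against 36.8 to 70.5 CPM. That count was near the 28.1% of all genes called in this contrast in either direction. Of 7 glycolytic genes 6 fell (median -0.63), with Pgam2 at 497 to 753 against 1862 to 2010. As in Cisplatin muscle, 5 of 9 denervation and atrophy genes rose (median 2.168), Fbxo32 to 8087 and 8740 CPM from 520 to 1001, Trim63 to between 4043 and 4824 from 200 to 293, and Cdkn1a to between 267 and 268 from 11.2 to 15.1. The fibre marker sum was 117478 to 127272 against 149726 to 182639 CPM, the smooth muscle sum 2224 to 2253 against 4272 to 6548 and the adipocyte sum 1059 to 3104 against 471 to 642. Their part in the results was not tested.

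After Sofosbuvir, a nucleotide antiviral, 3 slow genes were higher and a fast troponin was lower, while 0.653% of all genes were called. Myh7 was at 34.4 and 39.7 CPM against 0.41 and 0.10 in untreated and 3.62 and 13.04 in sucrose muscle. Tnni1 was at 9.45 and 12.7 CPM against 0.51, 0.63, 0 and 2.48, and Tnnt1 at 130 and 115 against 17.2, 9.91, 13.9 and 47.2. In all 3 genes both drug libraries lay above all 4 references. The log2 differences were 4.36 ± 0.83 for Myh7 (adjusted p = 0.0083), 3.47 ± 0.85 for Tnni1 (adjusted p = 0.045) and 2.47 ± 0.53 for Tnnt1 (adjusted p = 0.0196). Tnnt3, the fast partner of Tnnt1, was at 9954 and 10463 CPM against 10953 to 15581, lower (log2 difference -0.47 ± 0.08, adjusted p = 0.003).

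These calls depended on few libraries. Without Sofosbuvir replicate 1 the adjusted p was 0.0942 for Myh7 and 0.167 for Tnnt3, and without replicate 2 it was 0.0739 for Myh7. Tnni1 was lost without any 1 of the 6 libraries (adjusted p up to 0.282), Tnnt1 without either Sofosbuvir library, sucrose replicate 1 or untreated replicate 4 (adjusted p up to 0.282), and DESeq2 gave no adjusted p for Myh7, Tnni1 and Tnnt1. Of the slow fibre list Atp2a2, the slow calcium pump, rose by 1.53 ± 0.31 (named after its value was seen), and the list median was 1.32. Myl3 was at 354 to 444 CPM against 15.7 to 166. The fibre marker sum was 144529 to 145196 CPM against 149726 to 182639, the fibroblast sum 1127 to 1376 against 762 to 1022 and the cardiomyocyte sum 49.3 and 11.0 against 3.62 to 15.5, and their part in the results was not tested.

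Sucrose, itself a reference of APAP and Sofosbuvir, differed from untreated muscle in the fast troponins (3.26% of genes called). Tnnt3 was at 10953 and 11485 against 14394 and 15581 CPM, lower (log2 difference -0.57 ± 0.10, adjusted p = 6.1e-04, and 0.0629 without untreated replicate 4). Tnni2 was at 39704 and 40955 against 44349 and 47469, lower (log2 difference -0.34 ± 0.10, adjusted p = 0.0477), a call lost under 4 of 6 alternatives and without either sucrose library (adjusted p = 0.322 and 0.184) or untreated replicate 4 (0.588). The fibre marker sum was lower in sucrose too, 149726 to 150932 against 168184 to 182639 CPM, and its part was not tested.

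Among the antipsychotics, Clozapine and Olanzapine had high Actc1 in skeletal muscle. Actc1 is the actin of heart and of developing muscle. Clozapine libraries held 3269 and 1363 CPM against 358 and 211 in CMC-Tween, higher by 3.14 ± 0.60 (adjusted p = 0.0037, 1.61% of genes called). The call was lost without Clozapine replicate 3 (adjusted p = 0.175) or CMC-Tween replicate 4 (2.80, adjusted p = 0.125). Olanzapine libraries held 4221 and 1337 CPM against 447 to 1402 in the other set B drugs, higher by 1.90 ± 0.39 (adjusted p = 0.0091, 0.699% of genes called) with overlapping ranges, and without replicate 1 the difference was 0.82 (adjusted p = 0.720). Other set C libraries held up to 1492 CPM of Actc1 (Dox replicate 4), so the lower Clozapine library was inside the range of set C. The cardiomyocyte marker sum was at 4.02 and 4.25 CPM in Clozapine muscle against 13.2 and 3.27 in CMC-Tween, and at 9.05 and 3.83 in Olanzapine muscle against 2.31 to 10.3, with 3 or 4 of its 6 genes at 0.

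Olanzapine also had higher Tnnt3 (25564 and 25968 against 16836 to 24129 CPM, 0.36 ± 0.07, adjusted p = 0.0075), which was lost without either Olanzapine library (adjusted p = 0.199 and 0.131). Asenapine had lower Tnnt3 (18091 and 16836 against 19073 to 25968 CPM, -0.50 ± 0.08, adjusted p = 1.07e-04, 6.17% of genes called), higher Tnni2 (18830 and 19293 against 13115 to 15551, 0.32 ± 0.08, adjusted p = 0.009) and lower Myh1 (1666 and 1994 against 2127 to 3130, -0.55 ± 0.13, adjusted p = 0.0102). Without Asenapine replicate 3 or 4 the adjusted p was 0.0884 and 0.126 for Tnni2 and 0.237 and 0.0682 for Myh1. The fast troponins I and T thus moved in opposite directions in Asenapine muscle. Library sets A and B differed in the same opposite way, with medians of 39936 and 14675 CPM of Tnni2 and 11219 and 23096 of Tnnt3. The Asenapine libraries are replicates 3 and 4, and those of the other set B drugs in muscle replicates 1 and 2. The part of such a shift was not tested. Asenapine and Olanzapine are part of each other's reference. Of the fast fibre list 7 of 11 were higher in Asenapine muscle (median 0.28), and the brown adipocyte sum was 599 to 720 against 456 to 593 CPM, whose part was not tested.

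Repatha had lower Myh1 (1746 and 1053 against 2690 and 3338 CPM), Myh2 (532 and 234 against 1149 and 1288) and Tnni2 (8966 and 10782 against 14446 and 14894), with 2.48% of genes called. The log2 differences were -0.94 ± 0.16 (adjusted p = 7.4e-04), -1.51 ± 0.35 (adjusted p = 0.0129) and -0.40 ± 0.10 (adjusted p = 0.0207). Ranges were apart in all 3, but the calls were lost without single libraries: Myh1 without CMC-Tween replicate 4 (adjusted p = 0.0506) or Repatha replicate 3 (0.0554), Myh2 without either of these (adjusted p = 0.108 and 0.239), and Tnni2 without CMC-Tween replicate 3 or 4 or Repatha replicate 1 (adjusted p = 0.119, 0.100 and 0.372). The highest Myh1 and Myh2 of set C were in CMC-Tween and the lowest in Repatha replicate 3, with set medians of 2507 and 706 CPM. The adipocyte sum was 297 to 320 against 408 to 457 CPM. The fibroblast sum was 1928 to 2472 against 1548 to 1606, and the part of these sums was not tested.

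The 2 CMC-Tween libraries are the reference of all 8 set C drugs and were high in slow genes, with 35.8 and 46.6 CPM of Myh7, 34.8 and 19.6 of Tnni1 and 79.995 and 101.3 of Tnnt1. In set C, Myh7 of the drug libraries ranged from 0 to 46.8 CPM and Tnnt1 from 3.51 to 96.0. CMC-Tween also held the highest Myh1, Myh2 and Tnnt3 of the set, at 3338, 1288 and 25549 CPM. The median log2 difference of the slow fibre list was -1.94 in EMPA, -1.45 in Repatha, -1.29 in Aripiprazole, -1.22 in Cisplatin, -1.14 in Teriparatide, -1.04 in Clozapine, -0.30 in Lenalidomide and -0.27 in Dox, values that share those 2 libraries. No slow member passed in these 8 contrasts.

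**Figure D3:**
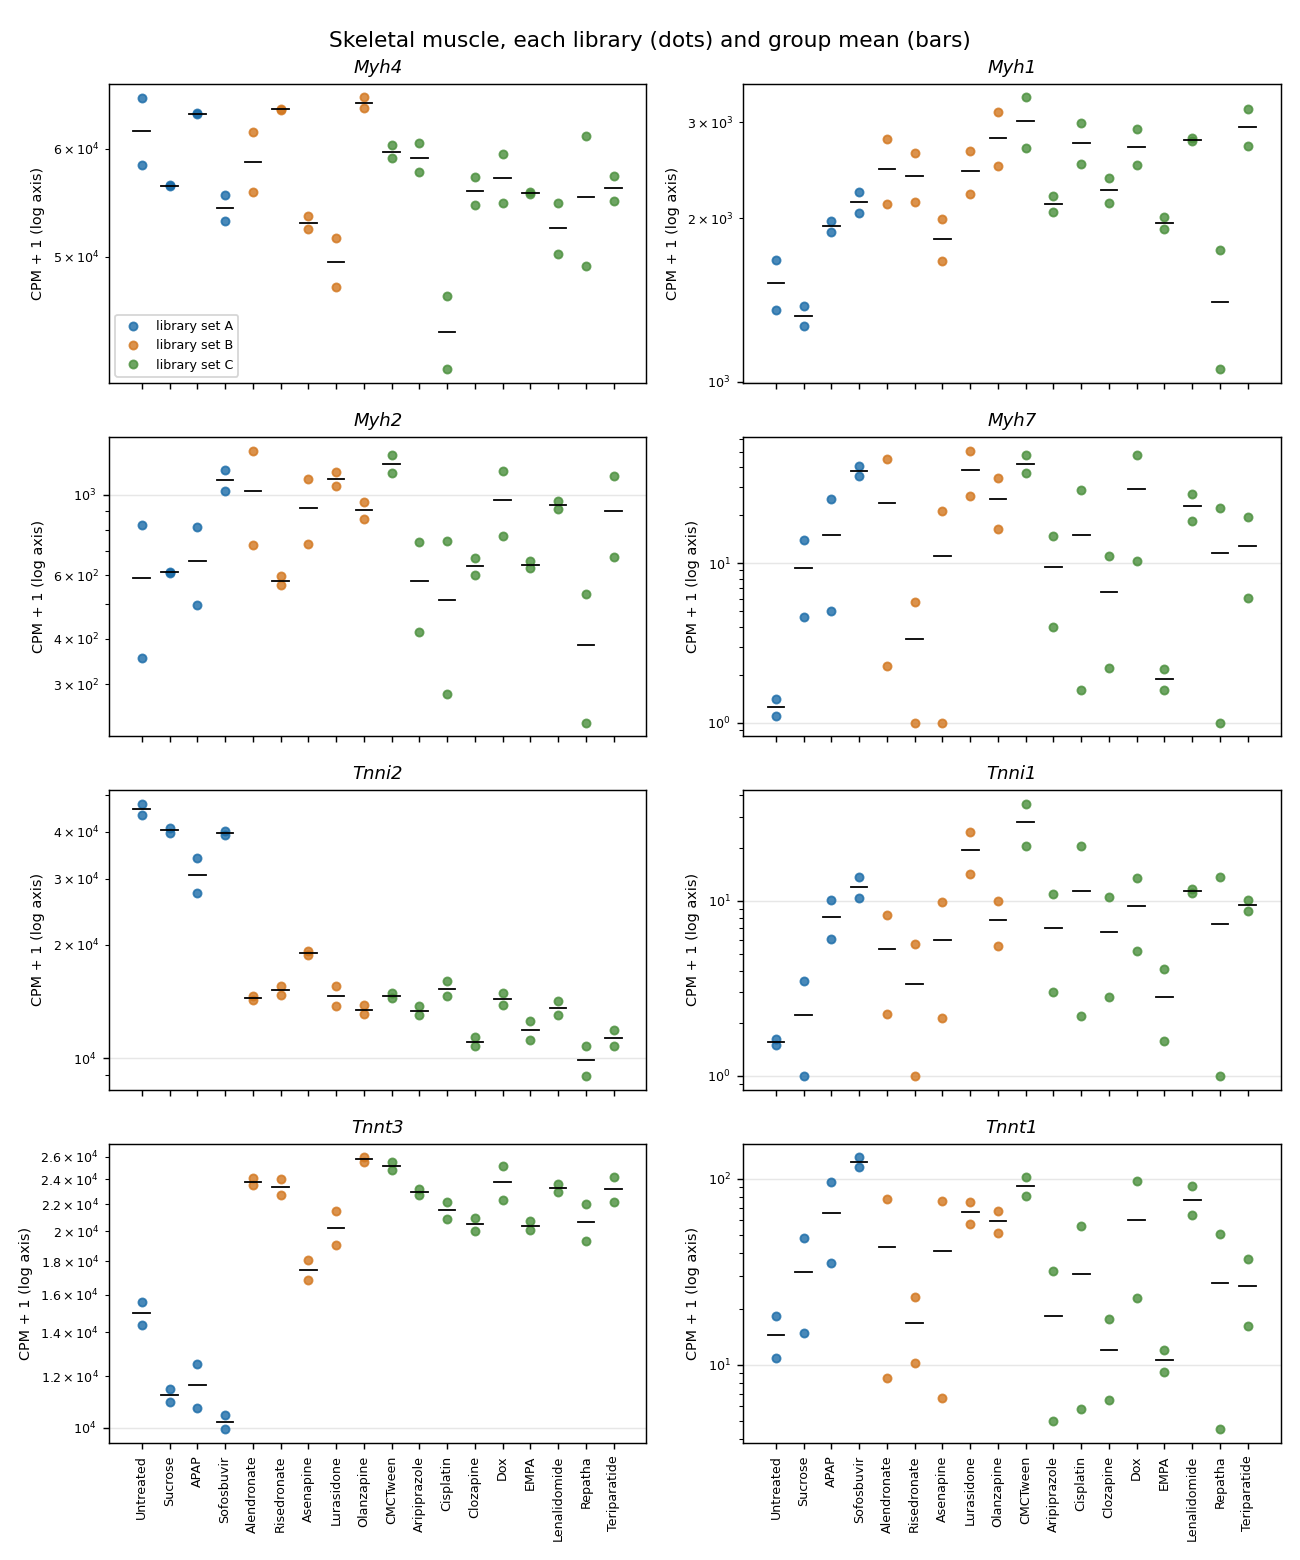
Levels of 8 of the 10 genes in the 36 skeletal muscle libraries (points, CPM + 1 on a log axis, bars for group means) by treatment, coloured by library set. Tnni2 and Tnnt3 step between sets, Myh4 stays within a narrow band with Cisplatin lowest, and the 2 libraries of a treatment often lie far apart for Myh7 and Tnni1.

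In heart 7 members passed the filter, and Myh1, Myh2 and Tnni1 did not. Of 112 member tests 5 passed (3 higher, 2 lower), against 2.28% of all tests (3234 of 141760), and 4 of the 5 had ranges apart. The same 4 kept their call under every alternative listed in the closing section and without each library in turn. They are Myh7 and Actc1 in Cisplatin and in APAP.

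After Cisplatin, Myh7, the fetal and stress-associated heart myosin, was at 608 and 398 CPM against 123 and 134 in CMC-Tween. Both libraries lay above the highest of the other 34 heart libraries (360 CPM, in APAP). The difference was 1.95 ± 0.20 on the log2 scale (adjusted p = 1.29e-09). Actc1 was at 2598 and 3339 CPM against 13002 and 13847, lower (log2 difference -2.21 ± 0.11, adjusted p = 3.26e-19), with 7.47% of all genes called. Myh6 was at 6052 and 6286 CPM against 7608 and 6572 and did not pass.

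Of the heart contractile list, 5 of 11 fell and 0 rose in Cisplatin heart (median -0.31), among them Tnni3, the cardiac troponin I (-0.30 ± 0.09). Of 9 tested slow fibre genes 4 fell and 1 rose, with the ventricular light chain Myl2 at 5737 to 6704 against 9069 to 9788 CPM and Tnnc1, the slow and cardiac troponin C, at 1947 to 2115 against 2728 to 2748. Of 6 tested denervation and atrophy genes 3 rose (median 0.70): Fbxo32 was at 469 to 726 against 260 to 293 CPM, Trim63 at 363 to 440 against 211 to 244, and Cdkn1a at 443 to 635 against 64.4 to 119. The cardiomyocyte marker sum was 20111 to 20783 against 23745 to 24124 CPM, the smooth muscle sum 1054 to 1230 against 699 to 765 and the red cell sum 1.32 to 4.77 against 59.1 to 59.7. Their part in the results was not tested.

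APAP moved the same 2 genes in the same directions, in a contrast that shares no library with that of Cisplatin. Myh7 was at 360 and 222 CPM against 119 to 152 in untreated and sucrose hearts, higher by 1.11 ± 0.16 (adjusted p = 1.6e-06), and Actc1 at 2647 and 3125 against 3898 to 4674, lower (log2 difference -0.64 ± 0.09, adjusted p = 2.36e-06). In this contrast 10.8% of all genes passed. Of the heart contractile list 2 fell and 1 rose, and 3 of 9 tested slow fibre genes fell. The smooth muscle sum was 4018 to 4328 against 3492 to 3571 CPM, whose part was not tested.

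Olanzapine had higher Myh6 (8400 and 10904 against 4178 to 8800 CPM, 0.56 ± 0.15, adjusted p = 0.034, 3.01% of genes called). The ranges overlapped, and without Olanzapine replicate 2 the difference was 0.30 (adjusted p = 0.593). The call was also lost without Alendronate replicate 1, Asenapine replicate 4, Lurasidone replicate 1 or Risedronate replicate 1 (adjusted p = 0.0592 to 0.0808). The fibre marker sum, which includes genes that heart muscle also expresses, was 28903 to 31040 against 15756 to 24934 CPM, and its part was not tested.

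The ranges of library sets A and B lay apart for 3 heart genes, while the median of Myh7 was 134, 119 and 139 CPM in sets A, B and C. Actc1 was at 2647 to 4835 CPM in set A, 14513 to 19185 in set B and 2598 to 15835 in set C, where the 2 Cisplatin libraries were lowest. Myh6 was at 12035 to 15610, 4178 to 10904 and 5193 to 8540, and Tnnt1 at 37.8 to 70.3, 17.0 to 31.6 and 14.9 to 29.9.

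**Figure D4:**
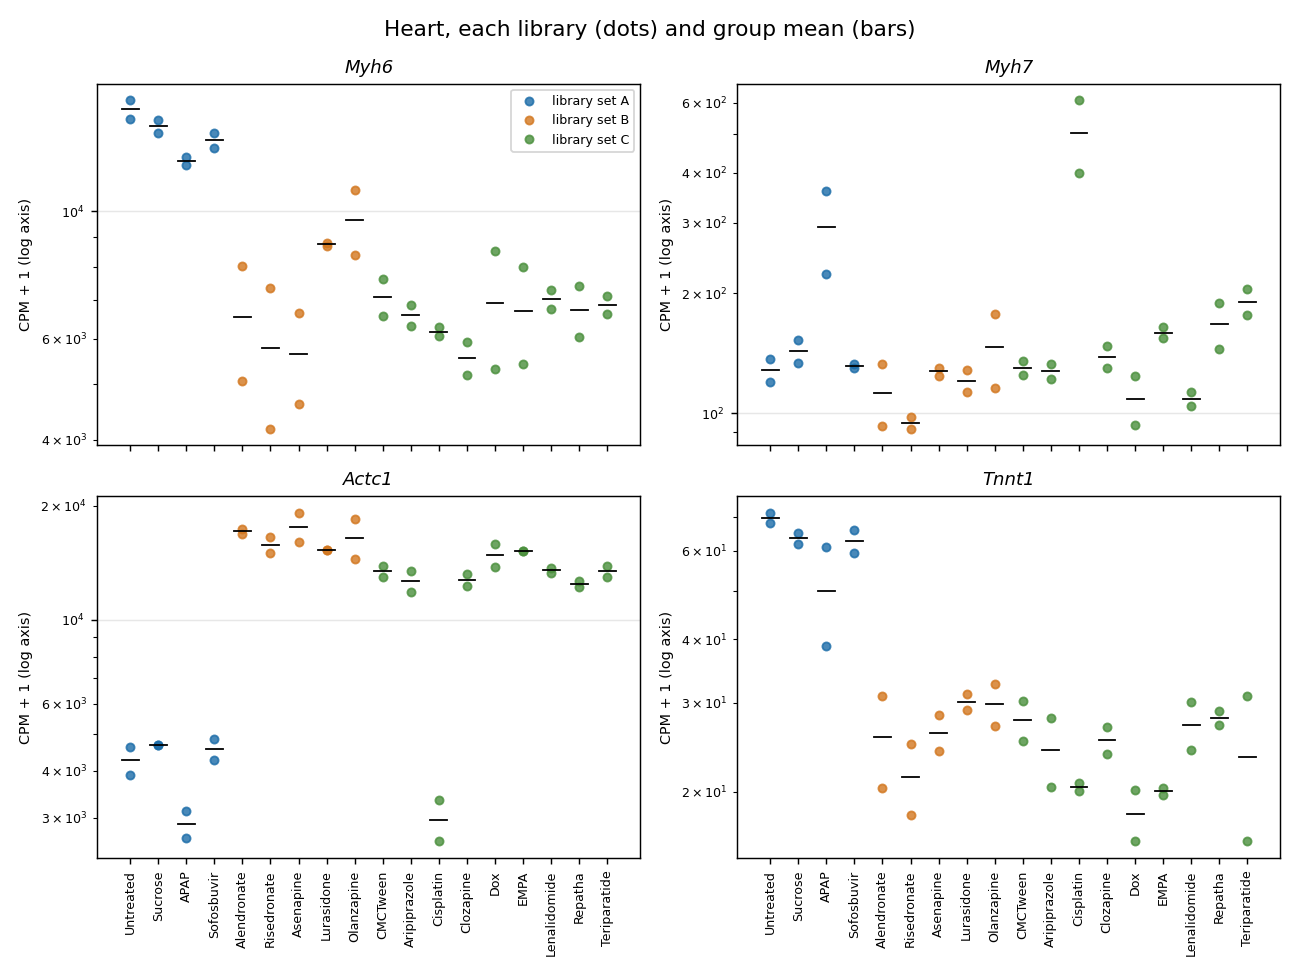
Levels of Myh6, Myh7, Actc1 and Tnnt1 in the 36 heart libraries (points, CPM + 1 on a log axis, bars for group means) by treatment, coloured by library set. Cisplatin has the highest Myh7 (398 and 608) and the lowest Actc1 of set C (2598 and 3339 CPM).

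A joint fit of the 72 muscle and heart libraries asked whether the treatment difference itself differed between the tissues. Of 160864 tests over 10054 genes 1.66% passed. The 10 members were each tested in the 16 contrasts, and 7 of their tests passed. Myh1, Myh2 and Tnni1 entered this fit although they did not pass the filter in heart alone. Values are the log2 difference from the reference in muscle minus that in heart. For Myh7 after Sofosbuvir this was 4.42 ± 0.75 (adjusted p = 0.00127, 0.368% of genes called). Sofosbuvir hearts held 129 and 132 CPM of Myh7 against 119 to 152 in their references. Myh7 after Cisplatin differed by -3.63 ± 0.74 (adjusted p = 3.23e-04, 10.9% called), and Actc1 after Cisplatin by 2.77 ± 0.63 (adjusted p = 0.00151). Actc1 after Clozapine differed by 3.27 ± 0.62 (adjusted p = 0.0119, 0.129% called), with 12310 and 13214 CPM of Actc1 in Clozapine hearts, inside the range of set C. Tnnt1 after Sofosbuvir (2.57 ± 0.61, adjusted p = 0.0406), Myh7 after sucrose (4.33 ± 1.26, adjusted p = 0.0265, 5.66% called) and Myh7 after EMPA (-5.67 ± 1.19, adjusted p = 0.0323, 0.0398% called) also passed. EMPA muscle had 0.61 and 1.17 CPM of Myh7 against 35.8 and 46.6 in CMC-Tween, while EMPA hearts had 163 and 153 against 123 and 134. The 2 differences of Myh7 after Sofosbuvir and Cisplatin held without each library in turn, and the other 5 did not.

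In the other 22 tissues, 75 of 1968 member tests passed, or 3.81%, against 2.91% of all tests (103917 of 3572544), with ranges apart in 43. Skin held 28 of them, in 144 tests. In the skin contrasts described below, 9.38% to 15.7% of all genes were called. Without skin the member share was 2.58% (47 of 1824) against 2.76% of all tests. Outside skin the members were thus called about as often as other genes. Eye held 6 calls (in 144 tests), bone marrow 5 (in 80), skull 5 (in 112) and thymus 4 (in 96). DESeq2 called 25 of the skin calls and 4 of the eye calls, but none in bone marrow, where it gave no adjusted p for the 5, none in skull (no adjusted p for 2) and 1 in thymus (no adjusted p for 3). Parotid gland, spleen, testis and white adipose tissue had 0 calls by edgeR and by DESeq2, with 11, 15, 19 and 8 tests at an unadjusted p under 0.05. The fast genes moved with the fibre markers. Of 61 calls in Myh1, Myh2, Myh4, Tnni2 and Tnnt3, 59 had a fibre marker sum that moved in the same direction. The markers Mylpf, Tnnc2 and Myl1 are themselves fast fibre genes, and many of the calls share libraries. This count is therefore a description, not a set of separate cases. Of 9 calls in Myh6 and Actc1, 7 moved with the cardiomyocyte marker sum, and all 5 of Tnnt1 moved with the fibre sum. The part of these markers in the calls was not tested.

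In the 36 skin libraries the fibre marker sum ran from 544 to 32400 CPM. Lurasidone skin had 5233 and 5747 CPM of Myh4 against 186 to 5152 in the other set B drugs, 2373 to 2772 against 78.2 to 2461 of Tnnt3 and 2084 to 2120 against 59.5 to 1342 of Tnni2 (9.38% of genes called). The log2 differences were 2.68 ± 0.50 (adjusted p = 7.12e-04), 2.69 ± 0.43 (adjusted p = 1.9e-04) and 2.66 ± 0.53 (adjusted p = 0.0015). Its fibre sum was 19907 to 22110 CPM against 672 to 16156. Olanzapine skin, part of the reference of Lurasidone, came next, with 4714 and 5152 CPM of Myh4 (2.54 ± 0.50, adjusted p = 0.0014, 10.3% of genes called) and a fibre sum of 15922 to 16156. Of the 12 calls in these 2 contrasts, 6 held without each library in turn.

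Dox skin was at the low end, with 164 and 225 CPM of Myh4 against 994 and 4203 in CMC-Tween (-3.73 ± 0.81, adjusted p = 0.0038, 10.6% of genes called) and a fibre sum of 682 to 1183 against 3589 to 15205. All 5 Dox calls were lost without Dox replicate 4 (adjusted p = 0.0697 for Myh4), and all but Myh4 without CMC-Tween replicate 4. Cisplatin skin had more Myh1 (1321 and 1485 against 98.4 and 473 CPM, 2.31 ± 0.56, adjusted p = 0.0054, 15.7% of genes called) and a fibre sum of 27526 to 30514, and without CMC-Tween replicate 3 the Myh1 difference was 1.59 (adjusted p = 0.0726).

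In eye, the calls were mostly lower values. Repatha eyes had 11.7 to 21.6 CPM of Myh2 against 99.4 to 131 in CMC-Tween (-2.49 ± 0.46, adjusted p = 0.0021, 1.22% of genes called), and lower Myh1 (35.0 to 40.4 against 97.3 to 113, adjusted p = 0.0126) and Tnnt3 (73.6 to 96.6 against 212 to 240, adjusted p = 0.0195). The fibre sum was 843 to 1252 against 2181 to 2352 CPM and the fibroblast sum 2473 to 3093 against 877 to 887. Dox eyes had more Myh4 (743 to 776 against 308 to 447, 1.21, adjusted p = 0.0139, 2.18% of genes called). None of the 6 eye calls held without each library in turn. Myh2 in Repatha eyes was lost without Repatha replicate 1 (-2.21, adjusted p = 0.069), Myh1 without either Repatha library or CMC-Tween replicate 3 (adjusted p = 0.114 to 0.143), Tnnt3 without any of the 4 (0.057 to 0.256), and Myh4 in Dox eyes without either Dox library or CMC-Tween replicate 4 (0.065 to 0.284).

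Organs with few fibre markers gave scattered calls. Risedronate libraries of colon and bone marrow had no count of Myh4, against 6.52 to 197 and 2.99 to 128 CPM in the other set B drugs (12.4% and 13.0% of genes called). Sofosbuvir liver had 69.3 to 75.6 CPM of Myh4 against 0.69 to 12.97 (1.46% of genes called). Replicates often disagreed: in thyroid the 2 libraries of a group differed by more than 10-fold in CPM + 1 in 8 of 18 groups for Myh1, 9 for Myh2 and 7 each for Myh4, Tnni2 and Tnnt3. Over the 36 thyroid libraries Myh4 ran from 4.30 to 9829 CPM, and 1 member test there passed.

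**Figure D5:**
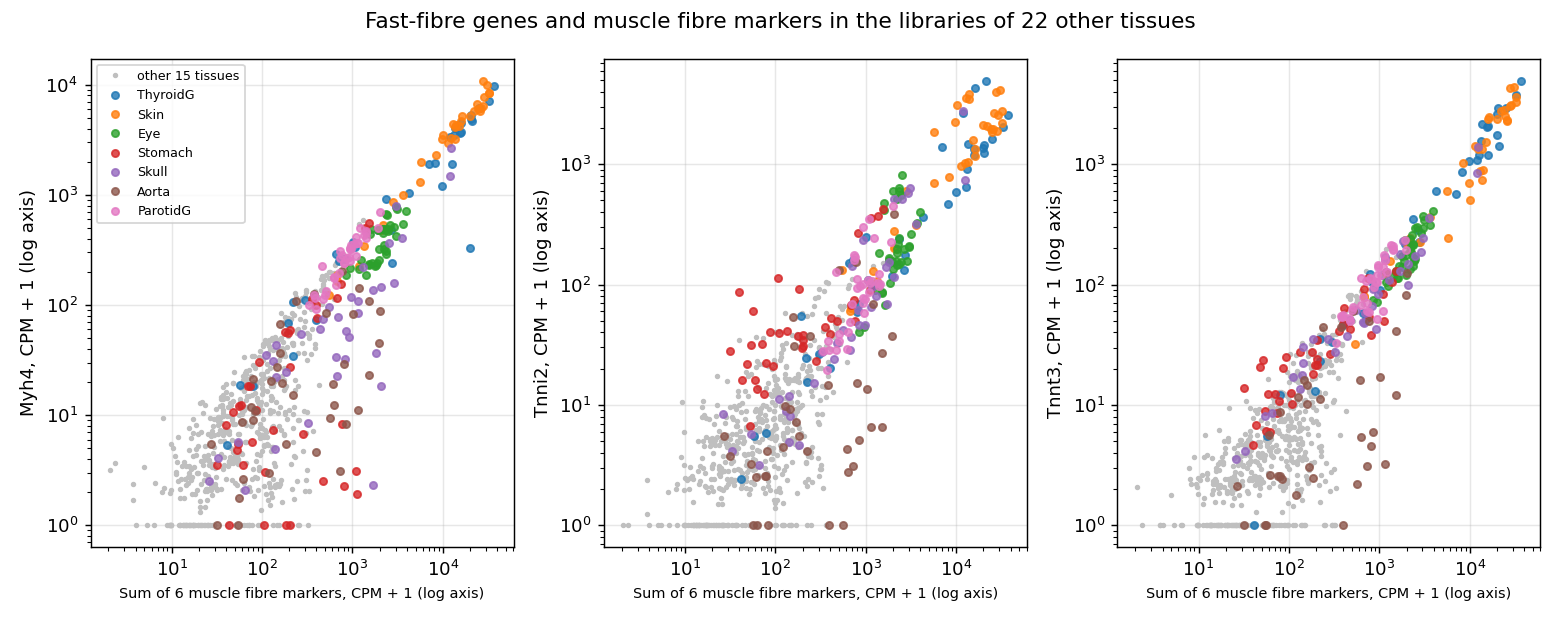
Myh4, Tnni2 and Tnnt3 (CPM + 1, log axis) against the sum of 6 skeletal fibre markers (CPM + 1, log axis) in the libraries of the 22 tissues other than skeletal muscle and heart. Thyroid and skull libraries span several orders of magnitude and skin libraries fewer. The 3 genes rise with the marker sum, which itself includes fast fibre genes.

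Last, the genes most like each member were found over the 24 untreated tissue means (Pearson r of log2 (CPM + 1), 15884 genes with at least 10 CPM in some tissue). These correlations describe 24 points, each the mean of 2 libraries. The nearest genes of Tnnt3 were Tnnc2 (0.988), Tnni2 (0.988) and Mylpf (0.985), and those of Tnni2 were Tnnt3, Mylpf (0.983) and Tnnc2 (0.975). Myh4 was nearest to Mybpc2 (0.944), Actn3 (0.944) and Atp2a1 (0.939), Myh1 to Myh2 (0.972), Tnnc2 (0.958) and Tnnt3 (0.956), and Myh2, after Myh1, to Atp2a1 (0.950) and Mybpc1 (0.944). The heart genes sat with other heart genes: Myh6 with Nppa (0.971), Mhrt (0.937) and Mybpc3 (0.933), Myh7 with Sbk3 (0.926), Tnni3k (0.914) and Tnnc1 (0.905), and Actc1 with Myoz2 (0.957), Ankrd1 (0.932) and C130080G10Rik (0.907). Mhrt overlaps Myh7 on the opposite strand. Tnni1 was nearest to Best2 (0.895), Etv4 (0.863) and Insl5 (0.806), and Tnnt1 to Clasp1 (0.824), Mdga1 (0.816) and Sp4 (0.770), none of them a gene of the sarcomere.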

How the data were processed

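The authors deposited whole-number read counts per gene symbol, 1 table per tissue, from 3′ mRNA libraries made from total RNA per the labels. Per the submitters' processing notes, bcl2fastq 2.17, TopHat2 2.1.1, HTSeq 0.9.1 and the mm10 genome were used. The gene annotation, the strand setting and read filters are not given in the sources used here.

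From these counts, CPM were computed with column sums. Tests used R 4.3.3 and edgeR 4.0.16 (limma 3.58.1): filterByExpr with a minimum count of 10, TMM scaling, a quasi-likelihood fit of all 18 groups of a tissue and Benjamini-Hochberg adjustment over all genes, with a threshold of 0.05. Alternatives were DESeq2 1.42.0, column sums, no filter, another reference, only the libraries of the set, a replicate block and libraries left out in turn. Permutation tests used scipy 1.17.1. Counts were drawn from 1 real mean per gene, with the spread of the same fit, to test Cisplatin against CMC-Tween in muscle. Changes were planted, 100 of each size, only in genes above a minimum level among the 8579 tested. Of these, 70% of 2-fold and 95% of 4-fold changes were recovered, with 0.131% of unchanged genes called. This recovery does not cover genes with few counts or groups whose libraries differ many-fold. With 2 libraries against 2, an exact permutation test cannot go below 0.333, so single-gene permutation tests were not used.

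The 2 libraries of a group in muscle or heart differed by more than sampling error, at 1.39 to 9.87 times the sampling variance over 36 pairs. This check cannot tell separate mice from repeat preparations of 1 mouse. The members and the gene and marker lists were chosen with earlier results of these data known. Of each list, up to 4 genes with the highest mean level in the tissue were named. Gene positions are from GENCODE vM21, promoters from RefSeq GRCm38.p6.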

Additional observations from a re-analysis of the deposited data

Results flagged for a closer look

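In the joint fit of skeletal muscle and heart, 7 treatment differences of single members differed between the tissues by edgeR's interaction test (adjusted p under 0.05). They came from 10 members in 16 contrasts, and 1.66% of the tests over all genes passed. Values are the log2 difference in muscle minus that in heart. Myh7 after Sofosbuvir was 4.42 ± 0.75 and kept its call without each of 12 libraries in turn, though DESeq2 gave no adjusted p for it. Myh7 after Cisplatin was -3.63 ± 0.74 and kept its call without each of 8 libraries (-7.95 to -2.65), but not with DESeq2 (adjusted p = 0.0924).

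The other 5 lost the call without at least 1 library. Actc1 after Cisplatin was 2.77 ± 0.63, and 0.62 (adjusted p = 0.681) without muscle Cisplatin replicate 3. Myh7 after sucrose was 4.33 ± 1.26 and kept its call in 4 of 8 such fits. It was 3.14 (adjusted p = 0.468) without muscle sucrose replicate 2, and its adjusted p was 0.0573 and 0.130 without muscle untreated replicates 2 and 4 and 0.0836 without heart sucrose replicate 1. Actc1 after Clozapine was 3.27 ± 0.62 and kept its call in 4 of 8 fits. Its adjusted p was 0.354 without muscle Clozapine replicate 3, 0.121 without muscle CMC-Tween replicate 4, 0.0593 without heart Clozapine replicate 3 and 0.0627 without heart CMC-Tween replicate 4. Tnnt1 after Sofosbuvir was 2.57 ± 0.61 and kept its call in 2 of 12 fits (adjusted p up to 0.271). Myh7 after EMPA was -5.67 ± 1.19 and lost its call in all 8 fits (adjusted p = 0.0568 to 0.409). These fits were added after seeing the data.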

How the results depend on the processing

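Without the low count filter, 79 members were called in muscle (22 as reported) and 26 in heart (5). The other 22 tissues gave 610 (75), and 40 differed between muscle and heart (7). The share of all tests called was 2.54% instead of 5.07% in muscle and 1.34% instead of 2.28% in heart. In the other tissues it was 2.13% instead of 2.91%. In heart and the other tissues, members that the filter had removed were tested as well. Heart gave 9 with all other groups of the set as reference, 17 with the replicate block and 9 without untreated replicate 2. Of all heart tests, 2.61% passed with that other reference and 1.73% with the replicate block. The other tissues gave 125 with only the libraries of the set, where 3.19% of all tests passed. DESeq2 gave 3 between muscle and heart. The cause of these changes was not tested. Leaving out 1 library at a time gave 17 to 31 in muscle, 4 to 9 in heart and 9 to 9 between untreated muscle and heart. DESeq2 gave 24, 4, 51 and 8 in muscle, heart, the other tissues and untreated muscle against heart, and column sums gave 29, 5, 83 and 9. Of the 102 treatment calls in all tissues, 33 have no adjusted p from DESeq2, and these were counted neither as kept nor as lost. Fitted with the replicate block, the counts were 29 in muscle, 93 in the other tissues, 9 between untreated muscle and heart and 8 between muscle and heart. The replicate numbers are not said to pair libraries, and same-numbered libraries deviated together with r from -0.097 to 0.178 (median 0.031, 35 pairs). The untreated Tnni1 difference between muscle and heart turned to -0.051 with column sums, and Tnni2 in sucrose muscle turned to 0.078 with all other groups of the set as reference. Isoform shares moved beyond the replicate spread in 3 of 6 cases with sucrose as baseline and in 6 with CMC-Tween. Depth limits genes with few counts: in the untreated libraries together, Tnni1 had 11 counts and Myh7 5 in muscle, and Myh1 10 and Myh2 2 in heart.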
